A study of Rattus norvegicus with 25 samples.

Results

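Interferon-stimulated genes are the genes that cells transcribe when type I interferon reaches them. A set of 9 of them, Irf7, Irf9, Stat2, Isg15, Mx1, Mx2, Ifit2, Ifit3 and Usp18, was taken by symbol from a table of 28909 genes in rat striatum, and 9 of 9 passed the low-count filter that left 14142 genes to test. The animals were 25 female Sprague Dawley rats lesioned with 6-OHDA (6-hydroxydopamine), a toxin that destroys dopamine neurons and gives a model of Parkinson's disease. Every animal received levodopa at 6 mg/kg QD, which the series title gives as levodopa/benserazide, the second agent being a decarboxylase inhibitor that acts outside the brain. The 3 arms were levodopa alone (n = 5), and levodopa plus trapidil BID at doses of 7.5 mg/kg (n = 10) or 15 mg/kg (n = 10). Trapidil is known as a platelet-derived growth factor antagonist and phosphodiesterase inhibitor. Dosing lasted 14 days, and the striatum on the lesioned side was collected on day 15, within a window that the labels tie to 1 hour of dosing. No unlesioned and no untreated animals were analysed here, so every difference below is between lesioned, levodopa-treated rats, and no age was given.

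In the type I interferon pathway, secreted interferon binds the receptor formed by Ifnar1 and Ifnar2, and the kinases Jak1 and Tyk2 then phosphorylate Stat2. Stat2 and Irf9 act together on the interferon-stimulated response element in promoters. Irf7 is a transcription factor that amplifies interferon production, Isg15 is a ubiquitin-like protein that is attached to other proteins, and Usp18 removes Isg15 and also damps signalling at the receptor. Mx1 and Mx2 are dynamin-like antiviral GTPases, and Ifit2 and Ifit3 are tetratricopeptide repeat proteins of the antiviral response. In brain, microglia, astrocytes, endothelial cells and neurons can all express such genes.

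Promoter windows are shown because Stat2 and Irf9 act on the response element there. RefSeq windows of the GRCr8 assembly, covering 250 bases before and 50 bases after a gene's start, were matched by symbol for 5 of the 9 genes (Irf7, Irf9, Stat2, Mx1 and Ifit3). The element's core was searched on both strands as GAAA, any 2 bases (NN) and GAAA again, which reads TTTC, NN and TTTC on the opposite strand, with overlapping matches allowed. The core was present in 2 of the 5 windows, those of Irf7 and Ifit3, and in 3.92% of all 33469 windows of the same length. The first window is Irf7 (chr1:205799974-205800273, minus strand), the second Ifit3 (chr1:241527076-241527375, plus strand), the third Stat2 (chr7:1286840-1287139, plus strand), a member with no core match, and the last Oas1a (chr12:41330216-41330515, plus strand), an oligoadenylate synthetase gene among the 10 whose levels were most like those of the set. Capitals mark the core, and each sequence is read 5′ to 3′ on the gene's strand.
Irf7: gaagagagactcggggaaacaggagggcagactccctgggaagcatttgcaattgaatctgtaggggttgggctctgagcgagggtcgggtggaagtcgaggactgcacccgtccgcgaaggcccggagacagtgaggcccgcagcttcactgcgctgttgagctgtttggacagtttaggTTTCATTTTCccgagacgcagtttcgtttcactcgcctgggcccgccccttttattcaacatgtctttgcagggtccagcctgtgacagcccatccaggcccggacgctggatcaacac
Ifit3: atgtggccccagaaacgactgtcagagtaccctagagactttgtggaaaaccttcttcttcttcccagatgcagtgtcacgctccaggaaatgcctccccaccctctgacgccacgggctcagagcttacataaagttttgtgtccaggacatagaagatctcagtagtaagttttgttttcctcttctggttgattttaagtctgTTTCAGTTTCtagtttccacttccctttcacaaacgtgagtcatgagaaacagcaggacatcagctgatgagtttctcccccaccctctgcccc
Stat2: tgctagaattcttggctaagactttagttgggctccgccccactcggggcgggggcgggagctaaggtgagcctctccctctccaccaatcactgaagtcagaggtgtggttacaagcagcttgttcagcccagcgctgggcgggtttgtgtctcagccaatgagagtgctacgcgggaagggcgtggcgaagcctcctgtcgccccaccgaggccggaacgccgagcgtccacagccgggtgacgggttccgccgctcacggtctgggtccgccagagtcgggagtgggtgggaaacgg
Oas1a: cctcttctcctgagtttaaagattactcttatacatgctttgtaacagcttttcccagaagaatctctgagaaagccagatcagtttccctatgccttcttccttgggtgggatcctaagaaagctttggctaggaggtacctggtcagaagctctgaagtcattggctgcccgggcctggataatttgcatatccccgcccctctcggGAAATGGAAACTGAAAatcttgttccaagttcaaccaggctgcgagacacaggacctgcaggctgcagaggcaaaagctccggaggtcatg
Counted from the gene's start, the Irf7 match TTTCATTTTC began at position -69 and the Ifit3 match TTTCAGTTTC at position -44, both on the opposite strand. In Oas1a, 2 matches overlapped, beginning at -41 and -35. The gamma-activated site TTCNNNGAA, which reads the same on both strands, was found in 1 of the 5 windows, that of Irf9 at position -99 (TTCTAGGAA), and in 8.87% of all windows. These matches describe letters in a window and not bound sites.

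Total gene counts ran from 16535828 to 19274429 per animal with levodopa alone, from 10838513 to 18794463 at 7.5 mg/kg and from 13862132 to 20532290 at 15 mg/kg. No 2 libraries agreed within sampling noise, chi-square over its degrees of freedom being at least 4.83 among 100 pairs of the same arm and at least 3.84 among 200 pairs of different arms. All 10 striatal projection neuron markers were detected, their summed level running from 9103 to 16243 CPM over the 25 animals. Levodopa animal 2 had the highest summed level of the microglial, endothelial, leukocyte, astrocyte, oligodendrocyte and choroid plexus marker lists of all 25 animals, and the lowest of the projection neuron list. Levels are given as CPM, the deposited counts scaled for library size with TMM factors, and are not set against each other between genes because no gene lengths were used. In bulk tissue, fewer cells of a type and less RNA per cell cannot be told apart. Mx1 and Mx2, and likewise Ifit2 and Ifit3, are related in sequence, and the strand setting of the counting was not given in the sources used here, so reads of related or overlapping genes may be shared.

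The transcription factors of the set had similar levels in the 3 arms. Irf7 was measured at 1.27, 5.98, 5.19, 0.792 and 3.40 CPM in levodopa animals 1 to 5. At 7.5 mg/kg its lowest, median and highest values were 0.645, 3.08 and 10.9 CPM, and at 15 mg/kg they were 1.04, 2.81 and 14.2 CPM. The medians thus lay close together while the animals of every arm spread widely, and the ranges overlapped throughout. Irf9 stood at 9.70, 11.0, 8.23, 8.07 and 7.81 CPM in the levodopa animals. Its lowest, median and highest values were 5.62, 7.13 and 10.1 CPM at 7.5 mg/kg, and 5.08, 7.90 and 13.9 CPM at 15 mg/kg. The levodopa animals sat inside the range of the 15 mg/kg arm for both Irf7 and Irf9, except that Irf7 in levodopa animal 4 was lower than in any 15 mg/kg animal. Stat2 stood at 40.8, 35.6, 35.1, 29.3 and 33.0 CPM in the levodopa animals. At 7.5 mg/kg Stat2 ran from 28.8 to 40.0 CPM with a median of 34.1 CPM, and at 15 mg/kg from 31.3 to 46.3 CPM with a median of 34.7 CPM. Stat2 was the steadiest of the set, its highest animal being 1.61-fold above its lowest.

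Isg15 and Usp18, the ubiquitin-like modifier and the protease that removes it, varied more than the arms differed. Isg15 was at 2.26, 4.01, 3.04, 1.11 and 2.71 CPM in the levodopa animals. It ran from 1.06 to 3.53 CPM at 7.5 mg/kg (median 2.05 CPM) and from 1.23 to 12.9 CPM at 15 mg/kg (median 1.99 CPM). Apart from animal 1 of the 15 mg/kg arm, the highest in that arm was 3.89 CPM, below levodopa animal 2. Usp18 was at 0.661, 4.19, 3.10, 0.633 and 1.86 CPM in the levodopa animals. It ran from 0.106 to 4.44 CPM at 7.5 mg/kg (median 1.47 CPM) and from 0.468 to 5.23 CPM at 15 mg/kg (median 1.78 CPM). The lowest Usp18 value rested on 2 reads, so its position below the other animals is loosely determined.

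Among the antiviral effectors, Mx1 and Mx2 spread more widely than Ifit2 and Ifit3. Mx1 was at 0.496, 3.27, 1.01, 0.211 and 0.266 CPM in the levodopa animals. Its lowest, median and highest values were 0.319, 0.854 and 4.12 CPM at 7.5 mg/kg and 0.245, 1.60 and 18.7 CPM at 15 mg/kg. Medians of Mx1 were ordered by dose, but levodopa animal 2 lay above the median of the 15 mg/kg arm and the lowest animals were at 4 reads in the levodopa arm, 6 in the 7.5 mg/kg arm and 5 in the 15 mg/kg arm. Mx2 was at 4.96, 12.8, 11.3, 4.06 and 6.59 CPM in the levodopa animals. Its lowest, median and highest values were 3.14, 14.6 and 26.4 CPM at 7.5 mg/kg and 3.16, 12.6 and 53.5 CPM at 15 mg/kg. The median of Mx2 was above the highest levodopa animal at 7.5 mg/kg and just below it at 15 mg/kg, while both trapidil arms also contained animals below every levodopa animal. Ifit2 was at 4.57, 11.3, 9.96, 6.23 and 5.95 CPM in the levodopa animals, against ranges of 2.45 to 10.2 CPM at 7.5 mg/kg (median 5.19 CPM) and 3.35 to 10.7 CPM at 15 mg/kg (median 5.51 CPM). Ifit3 was at 2.04, 5.68, 3.82, 2.69 and 3.19 CPM in the levodopa animals, against ranges of 1.06 to 5.95 CPM at 7.5 mg/kg (median 2.21 CPM) and 1.55 to 6.75 CPM at 15 mg/kg (median 3.21 CPM). For Ifit2 the highest of the 25 animals was a levodopa animal, number 2, and for the other 8 genes it was a 15 mg/kg animal.

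**Figure D1:**
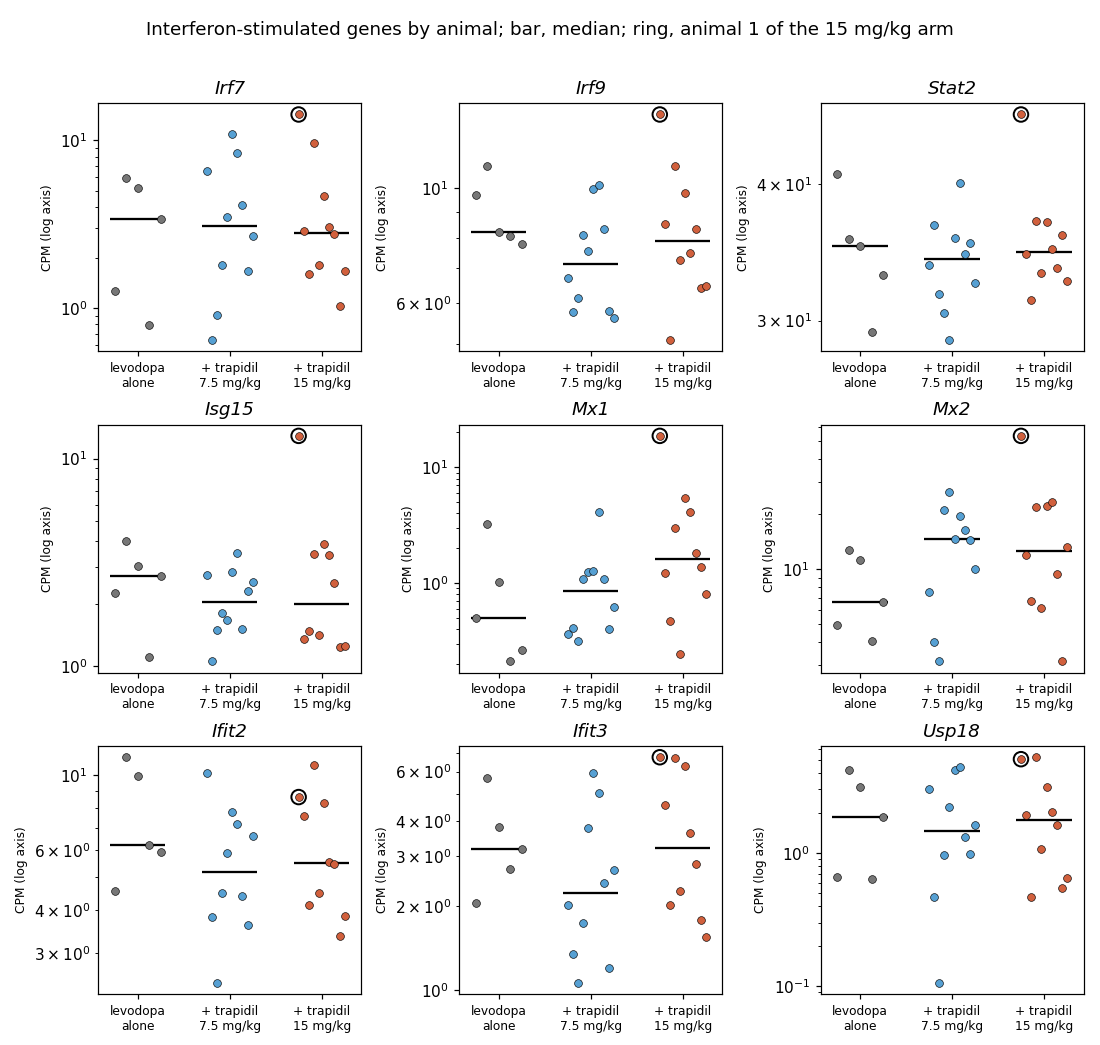
Level of each of the 9 interferon-stimulated genes in CPM (log axis) in every animal, by arm in order of trapidil dose; points are animals, bars are medians and the ring marks animal 1 of the 15 mg/kg arm. The arms overlap for all 9 genes, and the ringed animal is the highest of 25 for 7 of them, as with Mx1 at 18.7 CPM.

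The comparison of trapidil at 15 mg/kg with levodopa alone asked which transcripts the higher dose changed. With edgeR's quasi-likelihood test and Benjamini-Hochberg adjustment over all 14142 genes, 0 of the 9 genes passed a threshold of 0.05, where 1.31% of all genes did. At an unadjusted p below 0.05 there were 2 of 9, Mx1 and Mx2, where 19.5% of all genes were, a share near that background. DESeq2 and limma-voom with quality weights also called 0, with 2 and 0 genes at an unadjusted p below 0.05. Mx1 averaged 3.71 ± 5.51 CPM at 15 mg/kg (SD, n = 10) and 1.05 ± 1.28 CPM with levodopa alone (SD, n = 5). This was a log2 fold change of 1.84 ± 0.81 (SE; 95% interval 0.18 to 3.49; edgeR adjusted p = 0.205), with 7 of 10 animals above the levodopa mean. Without animal 1 of the 15 mg/kg arm the log2 fold change of Mx1 was 0.99 ± 0.67 (adjusted p = 0.445), and without levodopa animal 2 it was 2.90 ± 0.94 (adjusted p = 0.2). Mx2 averaged 17.1 ± 14.6 CPM at 15 mg/kg (SD, n = 10) and 7.93 ± 3.88 CPM with levodopa alone (SD, n = 5), a log2 fold change of 1.11 ± 0.51 (95% interval 0.059 to 2.17; adjusted p = 0.227; 7 of 10 animals higher). It was 0.73 ± 0.46 without the same 15 mg/kg animal (adjusted p = 0.397), and 1.35 without levodopa animal 2. Neither of the Mx genes passed after adjustment over all genes tested, although their 95% intervals, which are not adjusted, left out no change.

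The other 7 genes had log2 fold changes between -0.29 and 0.38 at 15 mg/kg against levodopa, with adjusted p values from 0.607 to 0.965. Irf7 averaged 4.32 ± 4.27 CPM and 3.33 ± 2.30 CPM (15 mg/kg and levodopa, SD, n = 10 and 5), a log2 fold change of 0.38 ± 0.61 whose 95% interval, -0.87 to 1.64, left room for sizeable change in either direction. Isg15 averaged 3.29 ± 3.52 CPM at 15 mg/kg and 2.63 ± 1.06 CPM with levodopa, a log2 fold change of 0.32 ± 0.44 (95% interval -0.59 to 1.23). That fold change was -0.22 without animal 1 of the 15 mg/kg arm and 0.53 without levodopa animal 2. For Stat2 the interval was narrow, -0.14 to 0.20 around 0.034 ± 0.083, with means of 35.6 ± 4.18 CPM at 15 mg/kg and 34.8 ± 4.20 CPM with levodopa. Irf9 was at -0.091 ± 0.18, Ifit3 at 0.14 ± 0.39 and Usp18 at 0.069 ± 0.59 on the same scale. Ifit2 had the lowest fold change, -0.29 ± 0.28 (adjusted p = 0.607), with means of 6.21 ± 2.45 CPM at 15 mg/kg and 7.60 ± 2.87 CPM with levodopa. Over the 9 genes the median log2 fold change was 0.14, with 2 negative, beside a median of 0.00068 over all genes tested.

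Trapidil at 7.5 mg/kg was set against the same 5 levodopa animals, so the results of the 2 doses share their control. Of the 9 genes 0 passed with edgeR, DESeq2 or limma-voom, and 0 were below an unadjusted p of 0.05 with any of the 3 tools, where 0.0283% and 11.7% of all genes were with edgeR. Mx2 had the largest fold change, 0.80 ± 0.51 (SE; 95% interval -0.25 to 1.86; edgeR adjusted p = 0.546; 8 of 10 animals higher), with means of 13.7 ± 7.57 CPM at 7.5 mg/kg (SD, n = 10) and 7.93 ± 3.88 CPM with levodopa (SD, n = 5). Mx1 was at 0.092 ± 0.83 on the log2 scale (95% interval -1.62 to 1.80), with means of 1.09 ± 1.13 CPM at 7.5 mg/kg and 1.05 ± 1.28 CPM with levodopa. Without levodopa animal 2, in which Mx1 was highest of its arm, that difference was 1.16 (adjusted p = 0.873). Ifit2 was at -0.44 ± 0.28 (adjusted p = 0.55; 8 of 10 animals lower), Irf9 at -0.28 ± 0.18 (adjusted p = 0.554; 8 of 10 animals lower) and Ifit3 at -0.35 ± 0.39 (adjusted p = 0.745). Irf7, Isg15, Stat2 and Usp18 were at 0.31 ± 0.62, -0.29 ± 0.45, -0.034 ± 0.083 and -0.12 ± 0.60. The median of the 9 was -0.12, with 6 negative, beside 0.0037 over all genes. None of these values set the 7.5 mg/kg arm apart from levodopa beyond the spread between animals.

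Between the doses the question was whether 15 mg/kg and 7.5 mg/kg differed. With edgeR 0 of the 9 genes passed, where 0.0283% of all genes did, and 1, Mx1, was below an unadjusted p of 0.05, where 3.63% of all genes were. DESeq2 called 0, with 1 at an unadjusted p below 0.05, and limma-voom called 0, with 0. Mx1 averaged 3.71 ± 5.51 CPM in the 15 mg/kg arm and 1.09 ± 1.13 CPM in the 7.5 mg/kg arm (SD, n = 10 each), a log2 fold change of 1.75 ± 0.63 (95% interval 0.46 to 3.03; unadjusted edgeR p = 0.00957, adjusted p = 0.999; 7 of 10 animals higher). Without animal 1 of the 15 mg/kg arm it was 0.90 (unadjusted p = 0.106). All 9 fold changes were positive, from 0.068 for Stat2 to 1.75, with a median of 0.19 beside -0.0024 over all genes, and all 9 had an adjusted p of 0.999. Without that animal the values of Irf7, Mx2 and Usp18 were -0.34, -0.072 and -0.036, and Isg15 stood at 0.065 in place of 0.61. The animals of both arms together, set against levodopa, also gave 0 of 9 genes with edgeR, DESeq2 and limma-voom, where 0.806% of all genes passed with edgeR. In that comparison 0 of the 9 were below an unadjusted p of 0.05, where 18.1% of all genes were, and the lowest adjusted p was 0.289.

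**Figure D2:**
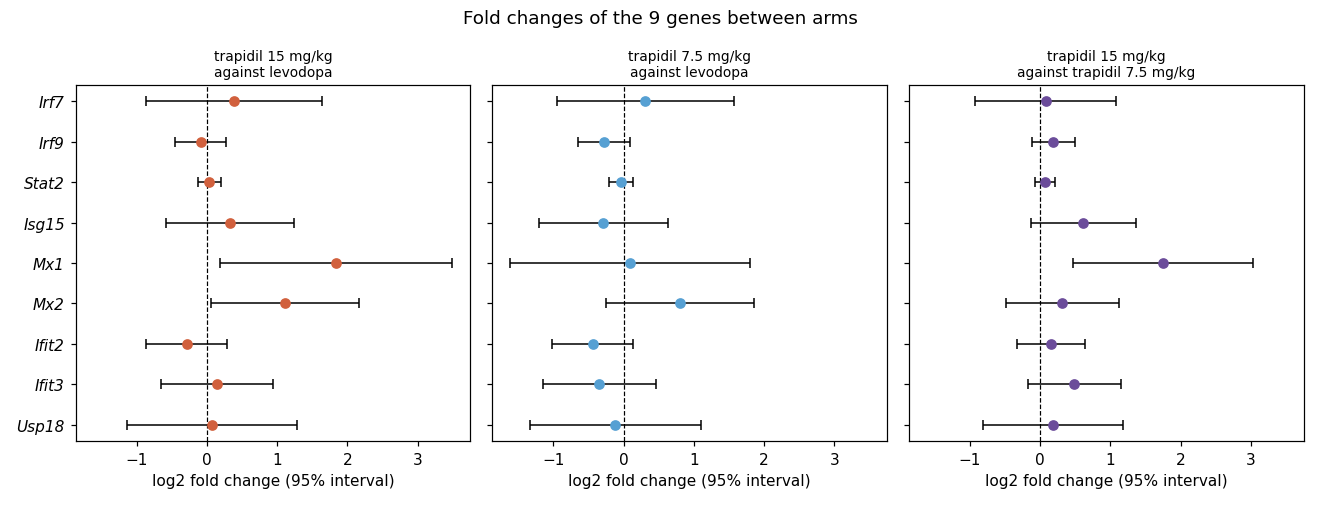
Log2 fold change of each of the 9 genes with its 95% interval (edgeR quasi-likelihood fit over 25 animals) in 3 comparisons; positive values are higher in the arm named first and the dashed line is no change. Mx1 lies farthest right at 15 mg/kg, at 1.84 against levodopa and 1.75 against 7.5 mg/kg, and the intervals of most genes cross the line.

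The 9 genes varied widely between animals of the same arm. Over the 25 animals the highest value was 88.5-fold above the lowest for Mx1, 49.2-fold for Usp18, 22.1-fold for Irf7, 17.0-fold for Mx2 and 12.2-fold for Isg15. Ifit3, Ifit2, Irf9 and Stat2 spread over 6.34-fold, 4.61-fold, 2.73-fold and 1.61-fold. The biological coefficient of variation, edgeR's estimate of the spread between animals of an arm beyond counting error, was 0.913 for Mx1, higher than in 99.8% of all tested genes. For Irf7 and Usp18 it was 0.740 (99.3% of genes lower in both cases), for Mx2 0.600 (98.6%), for Isg15 0.537 (98.1%), for Ifit3 0.481 (97.5%) and for Ifit2 0.354 (94.3%). Irf9, at 0.220, stood above 81.7% of genes and Stat2, at 0.103, above 34.9%. Irf9 and Stat2 were thus less variable, relative to the other tested genes, than the remaining 7.

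Animal 1 of the 15 mg/kg arm was the highest of the 25 for 7 of the 9 genes and among the top 5 for 9 of 9, with a mean rank of 1.56. Animal 4 of the same arm followed with a mean rank of 3.44 and was the highest for Usp18. Next came animal 6 of the 15 mg/kg arm and animal 7 of the 7.5 mg/kg arm (mean rank 4.78 each), levodopa animal 2 (5.11) and animal 6 of the 7.5 mg/kg arm (6.33). At the low end of the levels were animals 3 and 2 of the 7.5 mg/kg arm (mean ranks 22.8 and 21.0), animal 3 of the 15 mg/kg arm (20.6) and levodopa animal 4 (19.7). High and low animals thus occurred in each of the 3 arms.

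**Figure D3:**
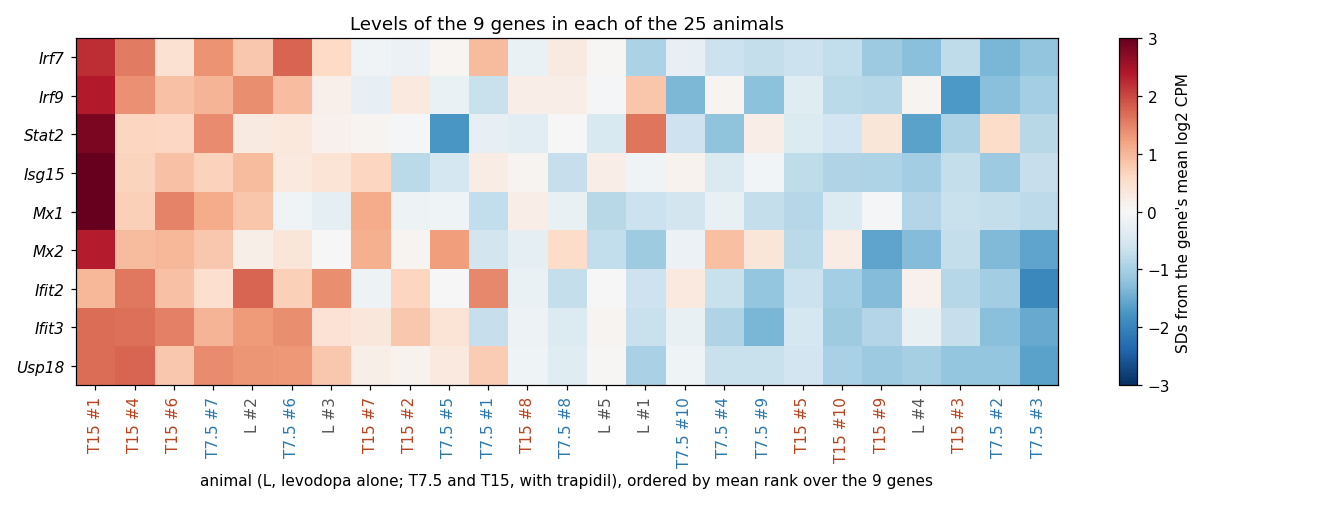
Level of the 9 genes (rows) in each of the 25 animals (columns), as SDs from the gene's mean log2 CPM, with colours limited at 3 SDs; animals are ordered by mean rank over the genes and labels are coloured by arm. The 3 arms are mixed along the order, with animal 1 of the 15 mg/kg arm (mean rank 1.56) at the high end and animal 3 of the 7.5 mg/kg arm (22.8) at the low end.

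Genes of the set were high and low together in the same animals. Deviations of log2 CPM (pseudocount 2) from the arm mean were correlated for all 36 pairs over 25 animals, with permutation of animals within arms (two-sided, 100000 resamples) and Benjamini-Hochberg adjustment over the 36 pairs. Of these pairs, 33 had an adjusted p below 0.05 by Pearson's r and 34 by Spearman's rho. The median r was 0.719 (0.29 to 0.96). Pairs of other tested genes were not counted in this way, so these counts have no background to be set against. The genes of the set were also chosen with earlier results of these data known. Irf7 and Usp18 were the closest, with r = 0.961 (adjusted permutation p = 3e-05) and rho = 0.963 (adjusted permutation p = 4e-05), both from the smallest p these permutations can give, 1e-05. Without the 2 animals farthest from the median of Irf7, r was 0.964. Isg15 and Mx1 had r = 0.893 (adjusted permutation p = 7.2e-05) and rho = 0.858 (adjusted permutation p = 7.2e-05), and r = 0.795 without the 2 animals farthest from the median of Isg15. For the related genes, r was 0.770 between Mx1 and Mx2 (rho = 0.809) and 0.833 between Ifit2 and Ifit3 (rho = 0.879), each with an adjusted permutation p of 3e-05 by r and 4e-05 by rho. These were 0.699 and 0.924 without the 2 animals farthest from the median of the gene named first.

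Stat2 stood apart from the others. Its median r with the other 8 genes was 0.506, and 5 of its 8 pairs passed, against 7 or 8 of 8 for each other gene. The 3 pairs that did not pass by r were Stat2 with Mx2 (r = 0.336, adjusted permutation p = 0.12), Ifit2 (r = 0.292, adjusted permutation p = 0.18) and Ifit3 (r = 0.404, adjusted permutation p = 0.053). By rho these pairs had 0.237 (adjusted permutation p = 0.27), 0.313 (0.15) and 0.415 (0.047). In the 6 pairs where Stat2 was the first gene, its r was between 0.0154 and 0.405 without the 2 animals farthest from the median of Stat2. Where Irf7 or Irf9 was first, and the 2 animals were chosen by that gene, r with Stat2 was 0.344 and 0.352. Median r was highest for Irf7 (0.798), Usp18 (0.772), Ifit3 (0.770) and Irf9 (0.746).

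The relation was recomputed within arms and without the highest animal. Within the 15 mg/kg arm the median r of the 36 pairs was 0.852 (0.602 to 0.973), and within the 7.5 mg/kg arm it was 0.609 (-0.133 to 0.959), the lowest being Stat2 with Mx2. The value of the 15 mg/kg arm includes its animal 1 and was not recomputed without it, so the 2 medians are not set against each other. The levodopa arm, with 5 animals, was too small for a value of its own. Without animal 1 of the 15 mg/kg arm 31 pairs passed and the median r was 0.688. Without the 2 animals farthest from the median of the first gene of each pair 28 passed, with a median r of 0.664 (0.0154 to 0.964). The labels name no batch, so no value within batches was computed.

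**Figure D4:**
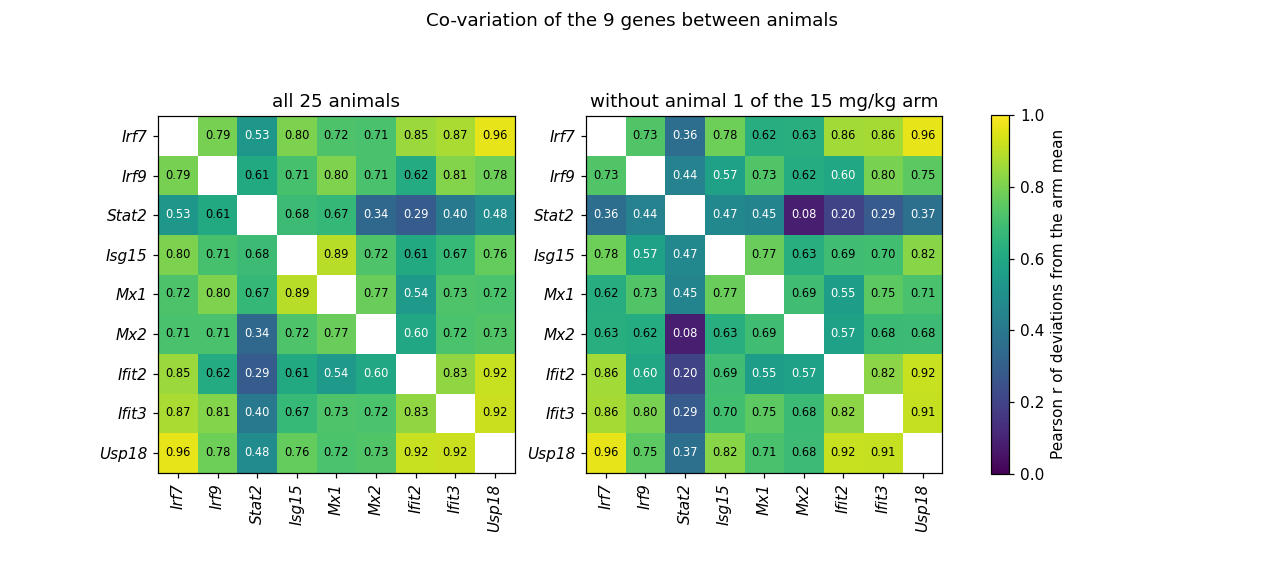
Pearson r of log2 CPM deviations from the arm mean for each pair of the 9 genes, with all 25 animals (left) and without animal 1 of the 15 mg/kg arm (right). Irf7 with Usp18 is at 0.96 in both panels, and the row of Stat2 holds the lowest values, down to 0.29 and 0.08.

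Marker lists of other cells were set beside this pattern. Summed CPM of 14 microglia and macrophage markers, 14 of 14 tested, ran from 493 to 875 with levodopa alone, 438 to 748 at 7.5 mg/kg and 440 to 565 at 15 mg/kg. Endothelial markers, 8 of 10 tested, summed to 489 to 922, 411 to 608 and 405 to 518 CPM in the same order, Cldn5 being at 0 in all libraries. Lymphocyte and other leukocyte markers, 4 of 13 tested, summed to 29.0 to 49.0, 20.5 to 44.0 and 20.6 to 33.4 CPM, with Gzmb at 0 in all libraries. Animal 1 of the 15 mg/kg arm, highest for 7 of the 9 genes, ranked 12 of 25 for the microglial sum, 18 for the endothelial sum and 13 for the leukocyte sum. Between the 9 genes and 8 marker sums 0 of 72 within-arm correlations passed after adjustment by r or by rho. The nearest was Irf7 with the leukocyte sum, r = 0.581 (permutation p = 0.0033, adjusted p = 0.11) and rho = 0.585 (permutation p = 0.0043, adjusted p = 0.087), with r = 0.446 when the 2 farthest animals were left out. Median r over the 9 genes was 0.423 with the leukocyte sum, 0.342 with the microglial sum, 0.312 with the endothelial sum and -0.181 with the projection neuron sum.

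Transcripts of the ligands were at the limit of detection. Of 10 interferon ligand genes in the table, 8 had a count of 0 in all 25 libraries and the 10 together had 5 reads. Over the 431775464 reads of all libraries a count of 0 allows up to 0.00695 CPM, a limit that covers counting error only.

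Other genes of the pathway were taken by role, 90 of 113 being tested, and 0 of them passed in any of the 4 comparisons with edgeR. At 15 mg/kg against levodopa 2 lay above and 9 below at an unadjusted p under 0.05, where 8.26% and 11.2% of all genes were, and the median log2 fold change was -0.046 beside 0.00068 over all genes. At 7.5 mg/kg against levodopa the counts were 2 higher and 2 lower (median -0.061), beside 5.02% and 6.64% of all genes. Without levodopa animal 2 the counts at 15 mg/kg were 4 above and 4 below, with a median of 0.045, and at 7.5 mg/kg 1 above and 0 below, with a median of 0.062. Most lists of cell markers were lower at 15 mg/kg against levodopa, where 1.31% of all genes were called. Log2 fold changes were negative for 13 of 14 microglial markers (median -0.28, 0 called) and 8 of 8 endothelial markers (median -0.38, 1 called). The same held for 3 of 4 leukocyte markers (median -0.46, 0 called) and 9 of 9 oligodendrocyte markers (median -0.62, 4 called). It also held for 9 of 9 astrocyte markers (median -0.18) and 4 of 4 red cell markers (median -0.098). Positive values were found for 8 of 10 projection neuron markers (median 0.072, 0 called) and 6 of 8 choroid plexus and ependyma markers (median 1.05, 0 called higher and 1 called lower). The 2 negative ones were Ttr, the one called (-5.11, edgeR adjusted p = 0.0217), and Kcne2 (-0.23, adjusted p = 0.698). Ttr had no reads in 9 of the 25 libraries. These marker values include levodopa animal 2. The part of the cell markers in the values of the pathway genes was not tested. The gene with the smallest p in each role is named, whatever its result. Among receptors and kinases it was Ifnar1, a subunit of the type I receptor, at 75.8 CPM on average at 15 mg/kg and 87.4 CPM with levodopa (log2 fold change -0.20 ± 0.066, edgeR adjusted p = 0.0887; lower in 10 of 10 animals). Among transcription factors it was Irf8, a regulator of microglia and myeloid cells, at 17.5 and 21.1 CPM (15 mg/kg and levodopa; -0.28 ± 0.10, adjusted p = 0.138; lower in 9 of 10). Among sensors and adaptors it was Tlr9, which senses unmethylated DNA, at 1.35 and 2.34 CPM (15 mg/kg and levodopa; -0.79 ± 0.22, adjusted p = 0.0634; lower in 10 of 10). Among other antiviral effectors Slfn5 was at 19.6 CPM in the animals of both trapidil arms and 28.6 CPM with levodopa (-0.55 ± 0.14, adjusted p = 0.0581; lower in 20 of 20), levodopa animal 2 standing at 49.5 CPM. Levodopa animal 2 was also the highest of its arm for Ifnar1 and Tlr9. Without it the log2 fold changes were -0.10 for Ifnar1 (edgeR adjusted p = 0.436), -0.24 for Irf8 (0.364), -0.67 for Tlr9 (0.241) and -0.26 for Slfn5 (0.443).

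The remaining roles gave no nearer result. Ube2l6, the conjugating enzyme for Isg15, was at 1.88 CPM at 15 mg/kg and 2.38 CPM with levodopa (log2 fold change -0.34 ± 0.31, edgeR adjusted p = 0.589). Ptpn6, a phosphatase that damps cytokine signalling, was at 7.88 CPM at 15 mg/kg and 10.4 CPM with levodopa (-0.40 ± 0.16, adjusted p = 0.159; lower in 9 of 10). Levodopa animal 2 had 16.7 CPM of Ptpn6, and the medians were 8.71, 8.73 and 8.06 CPM with levodopa alone, at 7.5 mg/kg and at 15 mg/kg. Without that animal the log2 fold changes at 15 mg/kg against levodopa were -0.17 for Ptpn6 (edgeR adjusted p = 0.677) and -0.11 for Ube2l6 (0.939). Cxcl10, a chemokine of the interferon-gamma class, was at 1.28 CPM in the 15 mg/kg arm and 0.420 CPM in the 7.5 mg/kg arm (1.55 ± 0.56, unadjusted p = 0.0101, adjusted p = 0.999; higher in 5 of 10), its highest value being 4.18 CPM in animal 1 of the 15 mg/kg arm.

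Likeness to the set was measured for every other tested gene as the mean Pearson r of its deviations with those of the 9 genes over 25 animals, a description that carries no test. The animals share their libraries and depth across genes. Of the genes with a mean of at least 1 CPM, the 10 most alike were Rtp4 (0.802), a chaperone of receptor transport, Oas1a (0.802), Oasl2 (0.787) and Oas1k (0.756) of the oligoadenylate synthetase family, Rsad2 (0.765), which encodes viperin, RT1-T24-3 (0.765) and RT1-T24-4 (0.751) of the rat class I histocompatibility region, Parp9 (0.765) of the ADP-ribosyltransferase family, Lgals3bp (0.755), a secreted galectin-binding glycoprotein, and Cfb (0.742), complement factor B. Without animal 1 of the 15 mg/kg arm their values were between 0.682 and 0.745 and their ranks between 1 and 11. Of these 10 genes 0 differed between arms with edgeR, the lowest adjusted p being 0.548 for Cfb at 15 mg/kg against levodopa. Cfb had a median of 8.02 CPM with levodopa, 6.70 CPM in the 7.5 mg/kg arm and 7.45 CPM in the 15 mg/kg arm, and stood at 68.9 CPM in animal 1 of the 15 mg/kg arm, where the highest animals of the levodopa and 7.5 mg/kg arms were at 15.7 and 13.4 CPM. Promoter windows were matched for 7 of the 10, and 4 of them (Oas1a, Oasl2, Rsad2 and Lgals3bp) held the response element core shown above.

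Likeness was also counted by role. A mean r above 0.5 was reached by 41 of the 90 other pathway genes (45.6%), against 100 of 14133 tested genes outside the set (0.708%). Among 37 other antiviral effectors 23 reached it, among 16 genes of the interferon-gamma class 12, among 3 genes of Isg15 conjugation 3 and among 11 sensors and adaptors 4, Herc6 being counted both as an effector and in conjugation. None of 9 receptors and kinases, 6 transcription factors or 9 inhibitors did, Ifnar1 being at 0.392 and Jak2 at -0.350. The transcription factors Irf8 (0.490), Irf1 (0.487) and Nlrc5 (0.481) lay just below 0.5, at or above 99.1% of tested genes outside the set. Without animal 1 of the 15 mg/kg arm these 3 were at 0.349, 0.208 and 0.391. The number above 0.5 without that animal was 29 of 90 (32.2%), against 88 of 14133 (0.623%). Over the roles it was then 20 effectors, 5 genes of the interferon-gamma class, 3 of Isg15 conjugation and 2 sensors, with Herc6 again in both lists.

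**Figure D5:**
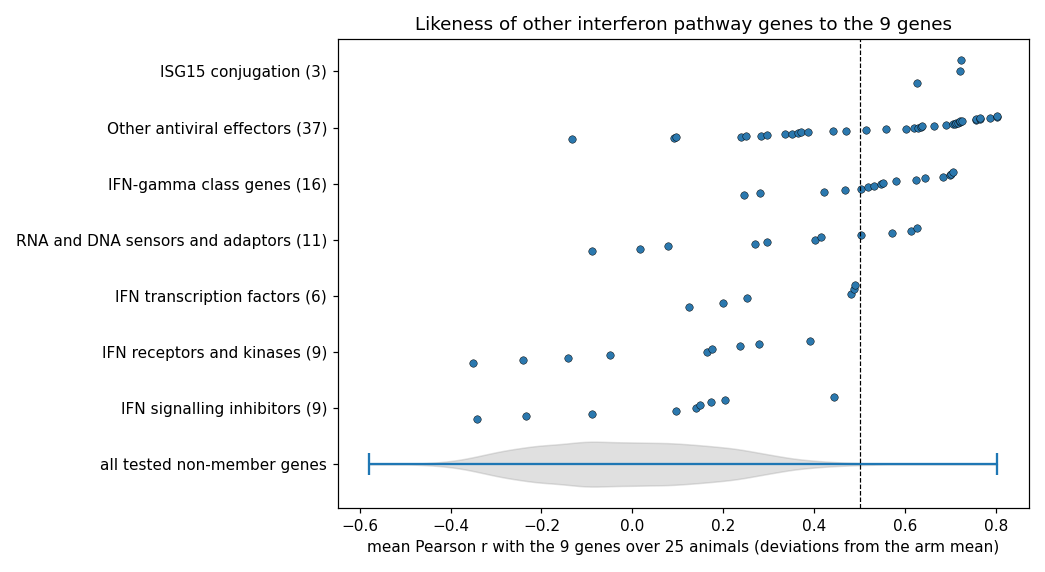
Mean Pearson r with the 9 genes over 25 animals for each tested gene of 7 pathway roles (points; number of genes in brackets) and for all tested genes outside the set (grey shape, line from lowest to highest); the dashed line is 0.5. Effector genes reach 0.80, while receptors and kinases stay at or below 0.39.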

How the data were processed

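Polyadenylated RNA of 25 striatal samples was sequenced, and the reads counted per gene were deposited by the authors as 1 table of raw counts. FastQC, STAR and HTSeq with the Rnor_6.0 build are named in the submitters' processing notes; for versions, annotation release and strand setting nothing was given in the sources used here. Arms were read from the labels, and all columns were used. The 9 genes and all gene lists were chosen with earlier results of these data known.

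Genes were kept with edgeR's filterByExpr (14142 of 28909), scaled by TMM and tested with edgeR 4.0.16 (glmQLFit, glmQLFTest; R 4.3.3) in 1 fit over all 25 libraries with arm as the factor. All tests were two-sided, and p-values were adjusted over the tested genes by the Benjamini-Hochberg method (threshold 0.05). Standard errors were taken from the fold change and the quasi-likelihood F. An animal counted as higher or lower by its side of the other arm's mean log2 CPM (pseudocount 2). The steps were tested on simulated data. Named pathway genes were those called, or else the gene of smallest p, in each role, and the 10 genes of highest mean r. Correlations used scipy 1.17.1 with 100000 resamples. Replicate numbers 1 to 5 are shared by the arms, and the data did not show whether they pair the animals. The r of same-numbered deviations ran from -0.415 to 0.206 in 20 pairs (median 0.0608), without a test. Alternatives were RLE scaling, 2 other low-count filters, DESeq2 1.42.0, limma 3.58.1 (voom with quality weights), a threshold of 0.1, only the arms compared, the replicate number as a block, and libraries left out. With 2 reads at the lowest and 856 at the highest per gene and library, counting error is largest for Mx1 and Usp18.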

Additional observations from a re-analysis of the deposited data

Results flagged for a closer look

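Within-arm spreads of the 9 genes were searched for a single animal far from the rest, by the gap to its nearest neighbour as a share of the arm's range (Dixon's test at 95%). Of 27 gene and arm combinations 6 were marked, each for its highest animal. The test was run on CPM without logarithms, and its rate of about 1 in 20 holds for normally distributed values. The values were skewed, as with Mx1 at 15 mg/kg (mean 3.71, median 1.60 CPM), so the count is not set against that rate. The 9 genes also share the same animals. In the 15 mg/kg arm animal 1 stood far above the next animal for 4 genes. It had 46.3 CPM of Stat2 against 37.0 CPM in the next animal, and 12.9 CPM of Isg15 against 3.89 CPM. For Mx1 it had 18.7 CPM against 5.41 CPM, and for Mx2 53.5 CPM against 23.2 CPM. Mx1 was also marked in the other arms, at 4.12 CPM in animal 7 of the 7.5 mg/kg arm against 1.27 CPM in the next, and at 3.27 CPM in levodopa animal 2 against 1.01 CPM.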

How the results depend on the processing

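No gene of the 9 passed an adjusted p of 0.05 under any setting run, 34 for each comparison and 33 for both trapidil arms against levodopa. Of 891 alternative fold changes 852 kept their direction and 39 did not, and the lowest adjusted p was 0.129, without levodopa animal 2 and the 7.5 mg/kg animal 1. Single-gene values of the comparison of both arms under these settings are left out of these counts and are not reported here. With limma-voom the log2 fold change turned to -0.0754 for Isg15, -0.0341 for Ifit3 and -0.17 for Usp18 (15 mg/kg against levodopa), -0.00712 for Irf7 (7.5 mg/kg against levodopa) and -0.22 for Mx2 (15 against 7.5 mg/kg). Without the 2 libraries named above Usp18 turned to 0.22 at 7.5 mg/kg against levodopa. The cause of these changes was not tested.

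With the replicate block, which was not shown to be a pairing, 0 of the 9 genes passed in each comparison. Signs turned for Irf7 (-0.0569), Isg15 (-0.0573) and Usp18 (-0.29) at 15 mg/kg, and for Irf7 (-0.13) and Mx1 (-0.0977) at 7.5 mg/kg, each against levodopa. The block left 0, 0, 4 and 6 of all genes called at 15 mg/kg and 7.5 mg/kg against levodopa, between the doses and for both arms, in place of 185, 4, 4 and 114.

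Leaving out 1 animal at a time, log2 fold changes at 15 mg/kg against levodopa ran from -0.031 to 0.70 for Irf7, -0.021 to 0.099 for Stat2, -0.22 to 0.53 for Isg15, -0.0031 to 0.38 for Ifit3 and -0.18 to 0.48 for Usp18. The upper ends were reached without levodopa animal 2, except that of Stat2, which was reached without levodopa animal 1. The lower ends of Irf7 and Isg15 were reached without animal 1 of the 15 mg/kg arm. At 7.5 mg/kg against levodopa they ran from -0.090 to 0.031 for Stat2, -0.42 to 1.16 for Mx1 and -0.35 to 0.30 for Usp18. Between the doses they ran from -0.34 to 0.38 for Irf7, -0.072 to 0.47 for Mx2 and -0.067 to 0.41 for Usp18. Counts over all genes moved more: 185 at 15 mg/kg against levodopa was 9 without levodopa animal 3, 894 without levodopa animal 4, 627 with DESeq2 and 715 with limma-voom. For 7.5 mg/kg against levodopa 4 became 1 without levodopa animal 3, 70 without the 7.5 mg/kg animal 1, 54 with DESeq2 and 102 with limma-voom. Between the doses 4 became 8 without the 7.5 mg/kg animal 1, 6 with DESeq2 and 13 with limma-voom. For both arms 114 became 19 without levodopa animal 2, 624 without the 7.5 mg/kg animal 1, 426 with DESeq2 and 563 with limma-voom. Correlated pairs numbered 28 to 34 of 36 over the settings; the settings without animal 1 of the 15 mg/kg arm, and without levodopa animal 2 for other pathway genes, were chosen after seeing the data.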

Other observations

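Several interferon pathway genes were below the low-count filter and had no test. Ifit1, of the same family as Ifit2 and Ifit3, had 5 reads over all 25 libraries, and Oas3 had 6. Zbp1, a sensor of left-handed nucleic acid, had 72 reads in all with at most 19 in 1 library. Cxcl9 and Cxcl11, chemokines of the same class as Cxcl10, had 93 and 108 reads in all. Oligodendrocyte markers summed to 10471 to 19254 CPM with levodopa alone, 7197 to 16045 CPM at 7.5 mg/kg and 6349 to 13556 CPM at 15 mg/kg. Their median r with the 9 genes within arms was 0.265, and 0 of the 9 relations passed after adjustment.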
